A study of Homo sapiens with 9 samples.

Results

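Genes of the actin cytoskeleton, of focal adhesions and of the serum response factor (SRF) program were followed in ovarian cancer cells grown on soft and stiff gels. The group holds 55 genes chosen by symbol from a list written by hand, out of 36343 genes in the count table. The list was written with earlier results of these data known, so its shares beside those of all genes are descriptions. Of the 55 genes, 54 had enough counts to be tested, out of 16335 genes tested in all. The 55th, FLNC (filamin C), had 0 to 6 counts per library and was left out. The cells were SKOV-3, an established line of human ovarian adenocarcinoma. All of them were kept for 3 days on commercial dishes coated with hydrogel, and by the labels the groups differed only in the stiffness of that gel, which was 0.5, 4 or 25 kPa. There were 3 libraries of poly(A) RNA per gel, numbered 1 to 3 for 0.5 and 4 kPa and 2 to 4 for 25 kPa. A single cell line was used and each comparison is between gels, since cells grown off gels were not analysed here. Whether a gel's libraries stem from separate dishes is not said in the sources used here, so the p-values speak only for the spread among these samples, and that spread may be technical.

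Cells hold on to their substrate at focal adhesions, where integrins are tied to actin filaments through talin, vinculin, paxillin and zyxin. Filaments that are bundled by alpha-actinin, coated by tropomyosin and pulled by non-muscle myosin II form stress fibers, and the small GTPase RhoA drives their assembly through the ROCK kinases and formins. When actin monomers are used up in filaments, the cofactors of the MRTF family enter the nucleus and switch on genes with SRF, many of which code for actin and its partners. SRF binds a short DNA element called the CArG box.

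Total counts were 19609740 to 21033433 per library, and the spread between libraries of a gel exceeded sampling noise in every pair (chi-square per degree of freedom 3.08 to 24.7). The levels below are CPM, a count relative to the library total scaled by TMM factors. The 55 genes together took 2.99 to 3.27% of the counts on the softest gel, 3.56 to 3.78% on the middle and 3.58 to 3.73% on the stiffest. Mitochondrial transcripts took 5.21 to 5.74% on 0.5 kPa, against 3.99 to 4.41% and 4.15 to 4.60% on the other gels. The nuclear RNA MALAT1 took 0.339 to 0.402% on the softest gel, 0.129 to 0.217% on the middle and 0.133 to 0.150% on the stiffest. The 10 markers of epithelial and ovarian carcinoma cells summed to 5350 to 6251 CPM over all libraries, most of it from ERBB2. ERBB2 was higher on 0.5 than on 25 kPa (means of 4088 and 3021 CPM, log2FC 0.44), KRT7 (242 and 671 CPM, log2FC -1.47) and CD24 (475 and 811 CPM, log2FC -0.77) were lower, and the other 7 were not called. Markers of fibroblasts and smooth muscle summed to 57.9 to 71.4 CPM, with 8 of 12 tested, 2 higher and 1 lower on 0.5 than on 25 kPa. Of its smooth muscle markers, DES and ACTG2 had means under 0.1 CPM and LMOD1 had 0.296 to 0.378 CPM, while MYH11 was at 1.32, 1.17 and 0.828 CPM on 0.5, 4 and 25 kPa (log2FC 0.67 for 0.5 against 25 kPa, not called). The 5 markers of blood and endothelium in the table summed to 0.965 to 2.28 CPM, with 1 higher and 1 lower of 2 tested. Markers of the breast cancer line MCF-7 summed to 308 to 336 CPM on the softest gel, 245 to 274 on the middle and 216 to 234 on the stiffest. Nearly all of this sum came from CA12 (231, 182 and 157 CPM on 0.5, 4 and 25 kPa) and ESR1 (85.5, 72.6 and 62.3 CPM). Of the 4 tested, CA12, ESR1 and GREB1 were higher on 0.5 than on 25 kPa and PGR was not called, while TFF1 and GATA3 were at 0 on 4 and 25 kPa. The part of these shifts in the results was not tested.

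Per base of gene length, the cytoplasmic actin ACTG1 and the monomer-binding TMSB10 led the group. Levels between genes were compared by the deposited FPKM, averaged over 9 libraries. ACTG1 stood at 2685 FPKM, rank 10 among all genes, TMSB10 at 1871 and ACTB, the other cytoplasmic actin, at 791. FLNA (436 FPKM), MYL12B (359), PFN1 (270.3), ACTN4 (253), RHOA (243), TAGLN2 (226) and MYH9 (215) came next. TAGLN (25.6), PXN (22.2), LIMA1 (19.0), SRF (14.9) and CALD1 (13.0) lay well below. At the low end were ACTA2, the smooth muscle actin, at 0.452 FPKM, MYL9 at 0.381 and CNN1 at 0.255. These smooth muscle forms of actin, myosin light chain and calponin had 1 to 36 counts per library.

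The CArG box was looked for in RefSeq promoter windows (GRCh38.p14, 250 bases before to 50 after each gene start), as CC, then 6 bases of A or T, then GG. This pattern is its own reverse complement, so one search covers both strands. Windows were found for 49 of the 55 genes, with 94 starts, and not for ACTB, FERMT1, MYL9, PARVA, PTK2 and TAGLN. A box stood in 11 of 94 windows (11.7%), against 454 of 35116 windows of all genes (1.29%). Of the 11, 2 are overlapping windows of FHL2 that hold the same box. By gene, 9 of 49 held a box in at least 1 window (18.4%), against 438 of 27305 (1.60%). The 9 were ACTG1, ACTN1, CNN2, TPM4, FHL1, FHL2, FLNA, ROCK2 and SRF itself, which has a pair of boxes. The genes lower on 0.5 than on 25 kPa, given below, held a box in 4 of 17 cases, and those not called in 5 of 30. Since the list was written to hold SRF targets, a share above that of all genes may follow from how the genes were chosen. A match is a description of the sequence and not evidence of binding. The windows around the boxes of SRF and of the 4 lower genes are shown because these genes are followed below, with FLNA as an abundant gene that was not called. They are written in the direction of transcription, with the box in capitals, and are cut to 30 bases where an exon overlaps.
SRF, chr6:43171194-43171268, plus strand: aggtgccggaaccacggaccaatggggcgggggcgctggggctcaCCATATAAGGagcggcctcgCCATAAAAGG
ACTG1, chr17:81512874-81512903, minus strand: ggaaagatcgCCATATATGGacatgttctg
ACTN1, chr14:68977683-68977782, minus strand: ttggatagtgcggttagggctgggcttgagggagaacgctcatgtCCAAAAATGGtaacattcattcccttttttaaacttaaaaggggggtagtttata
CNN2, chr19:1026474-1026573, plus strand: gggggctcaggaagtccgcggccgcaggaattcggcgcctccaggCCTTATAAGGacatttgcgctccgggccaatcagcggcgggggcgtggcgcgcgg
TPM4, chr19:16067320-16067419, plus strand: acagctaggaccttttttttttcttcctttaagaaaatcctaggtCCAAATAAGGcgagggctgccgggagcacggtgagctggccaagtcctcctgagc
FLNA, chrX:154374709-154374738, minus strand: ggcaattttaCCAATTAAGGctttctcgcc
The box begins 94 bases before the start in ACTG1, 171 in ACTN1, 89 in CNN2, 173 in TPM4 and 94 in FLNA. In SRF the 2 boxes begin 30 and 10 bases before it. ACTN1 has 4 annotated starts, TPM4 has 3 and SRF has 2, so the boxes shown for each of these genes belong to 1 of several promoters.

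Between the softest and the stiffest gel, TAGLN, CNN1, RHOB, CALD1 and LIMA1 led the genes that were lower on 0.5 kPa. Of the 54 tested, 19 were lower on 0.5 kPa, 1 was higher (CAPG) and 34 did not pass the test. Of all tested genes, 3.62% were lower and 3.06% higher by the same rule, 6.69% in all. The test was edgeR's quasi-likelihood test on the counts of all 9 libraries, with Benjamini-Hochberg adjustment over 16335 genes, and a gene was called when its adjusted p was under 0.05. The log2 fold change (log2FC) sets the softer gel over the stiffer one and is given ± its standard error from the fit, while a mean CPM is given ± the SD of 3 libraries. In 34 genes every 0.5 kPa library lay below every 25 kPa library (16.1% of all tested genes did), and in 2 every one lay above (14.2%). The median log2 fold change of the 54 was -0.25, while that of all tested genes was 0.00 to 2 decimals, and 47 of the 54 were negative. With 1 library left out, the median of the group ran from -0.18, without library 3 of 0.5 kPa, to -0.27. On the deposited FPKM it was -0.19 or -0.21, depending on the small value added before taking logs. At an unadjusted p under 0.05 stood 32 of the 54 (59.3%), against 22.9% of all genes. Most of the 54 had many counts, and small differences pass a test more readily at such levels. The shares over all tested genes, here and below, were not matched for level. The part of level in the gap between these shares was not tested. Bulk RNA cannot tell fewer cells with these transcripts from less of them per cell.

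**Figure D1:**
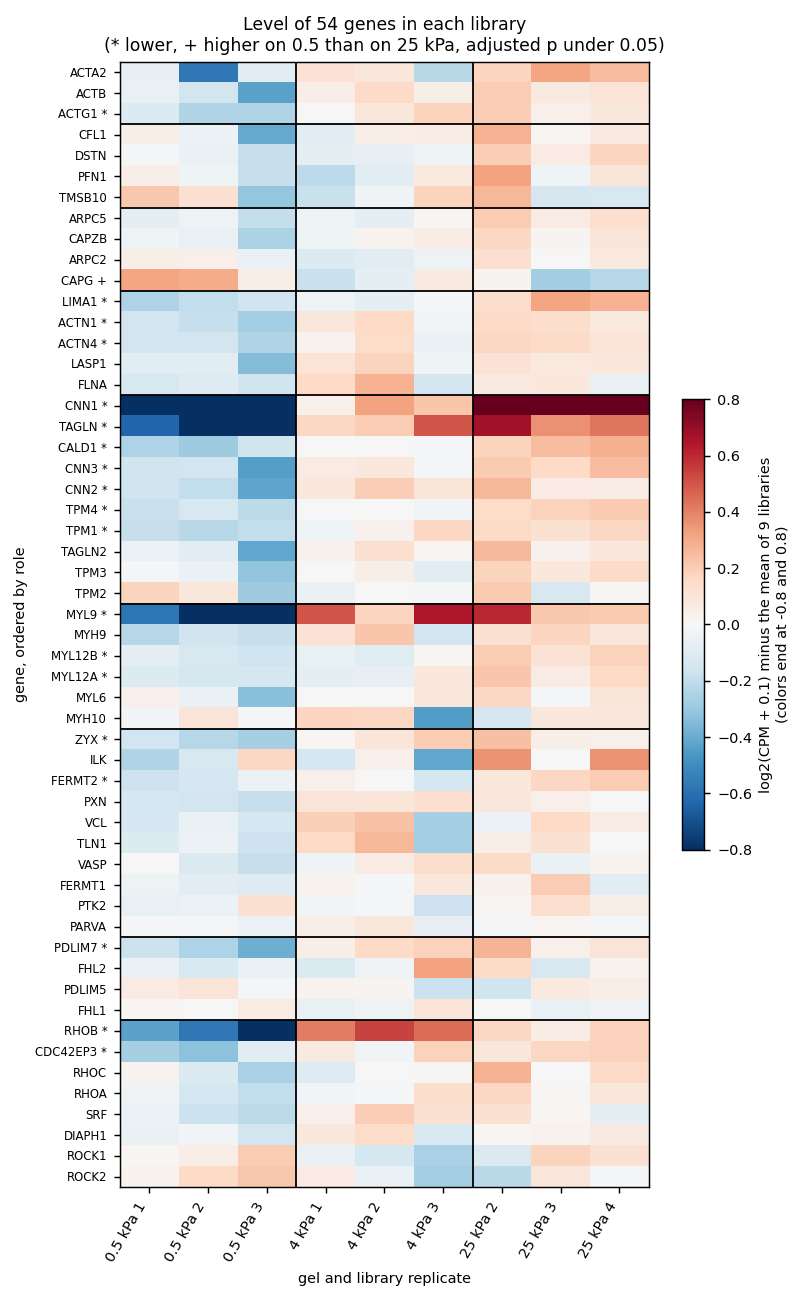
Level of the 54 tested genes in each of the 9 libraries, as log2(CPM + 0.1) minus the mean of the 9 libraries (blue lower, red higher), ordered by role from actins at the top to SRF at the bottom. Blue fills most of the 3 columns of 0.5 kPa, and the 19 genes lower on 0.5 than on 25 kPa carry a star.

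**Figure D2:**
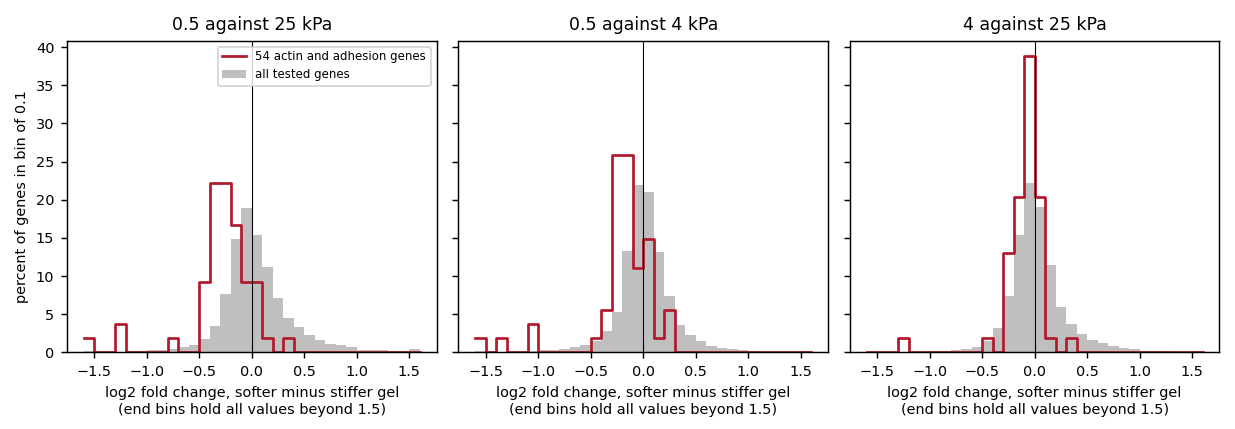
Percent of genes in bins of 0.1 log2 fold change for the 54 actin and adhesion genes (red line) and all 16335 tested genes (gray bars), in the 3 comparisons. The red line is moved to the left of 0 for 0.5 against 25 kPa (median -0.25) and 0.5 against 4 kPa (median -0.16), and lies close to 0 for 4 against 25 kPa (median -0.06).

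The count rested in part on single libraries. It was 7 lower genes without library 4 of 25 kPa, 9 without library 2 of 0.5 kPa, 10 without library 2 of 25 kPa, 11 without library 3 of 25 kPa and 12 without library 3 of 0.5 kPa. Over all tested genes the count of lower genes fell as well, from 592 to 194, 237, 295, 298 and 356 in the same order. It rose to 1083 without library 3 of 4 kPa. The count among the 54 also rose in part of the fits, and its full range is given in the last section. TAGLN, CNN1, RHOB, LIMA1, CALD1, CNN3 and PDLIM7 kept their call in all 9 fits with 1 library left out. With upper-quartile scaling, which turned the split of all called genes from 592 lower and 500 higher into 432 and 620, there were 16 lower and 1 higher among the 54.

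Among the 9 role groups, the proteins that coat actin filaments had the highest share of genes called between 0.5 and 25 kPa. The roles were set with earlier results of these data known, so this rank is a description. Over all tested genes 3.62% were lower. Of 10 tropomyosins, calponins, transgelins and caldesmon, 7 were lower on 0.5 kPa (TAGLN, CNN1, CALD1, CNN3, TPM4, TPM1 and CNN2), and TAGLN2, TPM3 and TPM2 were not called. Their median log2 fold change was -0.37.
TAGLN (ENSG00000149591, chromosome 11 from 117199321 to 117204782 of hg38) encodes transgelin, an actin-binding protein typical of smooth muscle. TAGLN was at 60.5, 52.5 and 51.5 CPM in the 0.5 kPa libraries, 106, 108 and 133 on 4 kPa and 149.6, 121 and 126 on 25 kPa. All 3 libraries of the softest gel lay far below the other 6, and the libraries of the 2 stiffer gels overlapped. The TAGLN level on 25 kPa was 2.41-fold that on 0.5 kPa (log2FC -1.27 ± 0.11, edgeR adjusted p = 3.0e-05).
CNN1 (ENSG00000130176, chromosome 19 from 11538717 to 11550323), the calponin of smooth muscle, had 4, 3 and 1 counts on 0.5 kPa, 11, 14 and 13 on 4 kPa and 27, 26 and 36 on 25 kPa. It was rare in every library, and the 3 gels did not overlap. From summed counts of 8 and 89, the CNN1 level on 25 kPa was 11.3-fold that on 0.5 kPa (95% exact binomial interval 5.49 to 27.0, counting error only). The fitted CNN1 log2FC of -3.44 ± 0.39 (edgeR adjusted p = 2.1e-04) depends on how such low counts are moderated.
CALD1 (ENSG00000122786, chromosome 7 from 134744252 to 134970728), caldesmon, which curbs myosin on the filament, was at 107, 104 and 113 CPM on 0.5 kPa, 127, 127 and 125 on 4 kPa and 144, 151 and 155 on 25 kPa. Its libraries did not overlap between any of the gels, with the 4 kPa libraries in the middle, although neither single step passed the test. Between the end gels CALD1 had a log2FC of -0.47 ± 0.07 (edgeR adjusted p = 9.2e-04).
CNN3 (calponin 3, the form found outside muscle) was at 367, 369 and 302 CPM on 0.5 kPa, 429.6, 434 and 405 on 4 kPa and 473, 458 and 485 on 25 kPa, again without overlap. CNN3 had a log2FC of -0.45 ± 0.08 (edgeR adjusted p = 0.0068). CNN2, the third calponin, was at 117, 114 and 97.6 CPM on 0.5 kPa, 138, 149.9 and 139.8 on 4 kPa and 157, 137 and 136 on 25 kPa. Here the stiffer gels overlapped, and CNN2 had a log2FC of -0.39 ± 0.09 (edgeR adjusted p = 0.017) for 0.5 against 25 kPa.
Tropomyosins lie along the filament and govern which proteins can bind it. TPM4 was at 1102, 1141 and 1076 CPM on 0.5 kPa, 1248, 1245 and 1228 on 4 kPa and 1382, 1414 and 1442 on 25 kPa. TPM1 was at 244, 238 and 242 CPM on 0.5 kPa, 271, 284 and 312 on 4 kPa and 309, 302 and 312 on 25 kPa. TPM4 kept the gels apart, and TPM1 kept 0.5 kPa apart from the other gels. Their log2FC for 0.5 against 25 kPa was -0.35 ± 0.07 in both (edgeR adjusted p = 0.0078 for TPM4 and 0.011 for TPM1). TPM3 had -0.26 ± 0.09 (edgeR adjusted p = 0.084) and TPM2 -0.03 ± 0.11. TAGLN2, the transgelin of most non-muscle cells, had -0.31 ± 0.10 (edgeR adjusted p = 0.081). TPM4 was not called without library 4 of 25 kPa (adjusted p = 0.062), TPM1 without that library or library 2 of 0.5 kPa (adjusted p up to 0.068), and CNN2 without library 3 of 0.5 kPa or library 2 or 4 of 25 kPa (adjusted p up to 0.074).

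**Figure D3:**
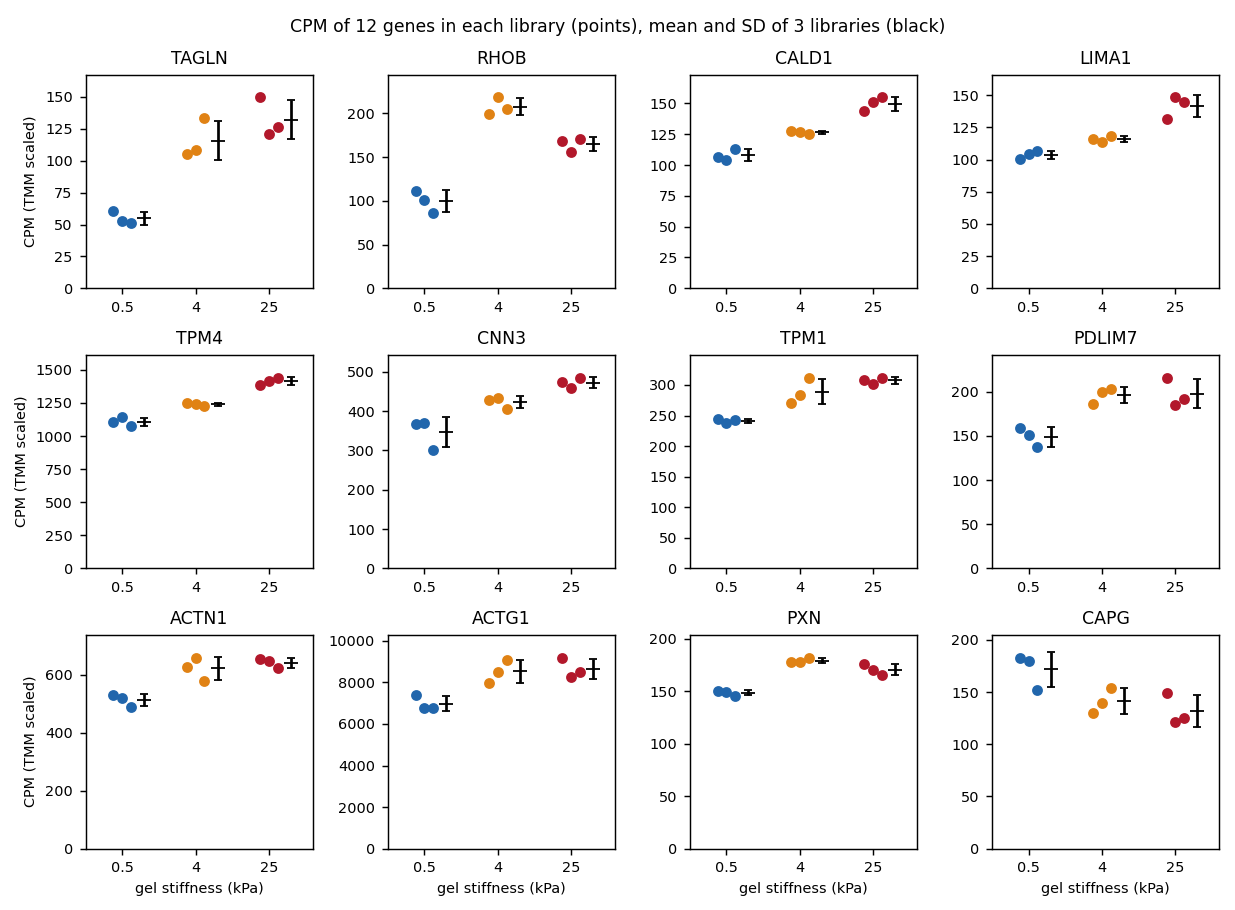
CPM of 12 genes in each library (points, colored by gel) with the mean and SD of 3 libraries (black), each axis starting at 0. TAGLN and RHOB show the widest gap between 0.5 kPa and the other gels, RHOB is highest on 4 kPa, and CAPG runs the other way, with a mean of 172 CPM on the softest and 132 CPM on the stiffest gel.

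Among the crosslinkers of actin filaments, 3 of 5 tested genes were lower on 0.5 kPa. LIMA1 (EPLIN, which bundles filaments and slows their turnover) was at 100.4, 104 and 107 CPM on 0.5 kPa, 116, 113 and 118 on 4 kPa and 132, 148 and 145 on 25 kPa. The 3 gels did not overlap, and LIMA1 had a log2FC of -0.45 ± 0.07 (edgeR adjusted p = 0.0018). ACTN1 (alpha-actinin 1) was at 531, 518 and 488 CPM on 0.5 kPa, 627, 659 and 579 on 4 kPa and 654, 648 and 622 on 25 kPa. ACTN4 (alpha-actinin 4) was at 1386, 1388 and 1300.2 CPM on 0.5 kPa, 1568, 1706 and 1481 on 4 kPa and 1729, 1708 and 1656 on 25 kPa. In both alpha-actinins the softest gel lay below the other gels, which overlapped, and log2FC was -0.32 ± 0.07 for ACTN1 and -0.32 ± 0.08 for ACTN4 (edgeR adjusted p = 0.0200 and 0.025). LASP1, an adaptor at the cell edge, had -0.26 ± 0.09 (edgeR adjusted p = 0.083) and FLNA, the main filamin, -0.16 ± 0.10 (edgeR adjusted p = 0.37). ACTN1 was not called without library 2 of 0.5 kPa or any one of the 25 kPa libraries (adjusted p up to 0.075), and ACTN4 without any one library of 0.5 or 25 kPa (adjusted p up to 0.089).

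Of the 3 actins, ACTG1 was lower on 0.5 kPa, and ACTB and ACTA2 did not pass the test. ACTG1 (ENSG00000184009, chromosome 17 from 81509971 to 81523847) was at 7408, 6778 and 6768 CPM on 0.5 kPa, 7986, 8509 and 9105 on 4 kPa and 9194, 8249 and 8489.7 on 25 kPa. ACTB (ENSG00000075624, chromosome 7 from 5527147 to 5563784) was at 2663, 2502 and 2058 CPM on 0.5 kPa, 2872, 3079.7 and 2855 on 4 kPa and 3189.7, 2909 and 2988 on 25 kPa. In both, the 3 libraries of 0.5 kPa lay below all others. ACTG1 had a log2FC of -0.31 ± 0.08 (edgeR adjusted p = 0.046), and ACTB -0.33 ± 0.10 (edgeR adjusted p = 0.055), just outside the threshold. ACTG1 stayed called in only 1 of the 9 fits with a library left out, that without library 3 of 4 kPa, and its adjusted p reached 0.16 in the others. Reads of ACTG1 and ACTB, which are near-identical in their coding parts and have many processed pseudogenes, may be shared between them. ACTA2 had 17 to 26 counts in the 0.5 kPa libraries, 23 to 29 in those of 4 kPa and 30 to 33 in those of 25 kPa, and was not called.

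Of the genes that turn filaments over or cap and branch them, CAPG alone was called. CFL1 and DSTN, which sever filaments, had log2 fold changes of -0.25 and -0.23 for 0.5 against 25 kPa, PFN1 (profilin, which feeds monomers to growing ends) -0.19 and TMSB10 (which sequesters monomers) 0.02, and none of the 4 was called (edgeR adjusted p 0.078 to 0.96). TMSB10 varied more within gels than between them, from 745 to 1069 CPM on 0.5 kPa and from 839 to 1107 on 25 kPa. The branching subunits ARPC2 and ARPC5 had -0.06 and -0.24, and CAPZB, a subunit of the main capping protein, -0.21, without a call.
CAPG, a gelsolin relative that caps filament ends, was the only one of the 54 called higher on 0.5 kPa. CAPG was at 183, 180.2 and 152 CPM on 0.5 kPa, 130.1, 139.7 and 154 on 4 kPa and 149, 121 and 125 on 25 kPa. The end gels did not overlap, but the lowest 0.5 kPa library lay just above the highest 25 kPa library. CAPG had a log2FC of 0.38 ± 0.10 (edgeR adjusted p = 0.037). It was not called without library 1 or 2 of 0.5 kPa, library 2 of 4 kPa or library 3 or 4 of 25 kPa (adjusted p up to 0.16).

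Of the 6 subunits of non-muscle myosin II, the 3 regulatory light chains were lower on 0.5 kPa. These are the chains whose phosphorylation switches the motor on. MYL9, the form of smooth muscle, had 13, 9 and 11 counts on 0.5 kPa, 29, 23 and 33 on 4 kPa and 31, 23 and 24 on 25 kPa. From summed counts of 33 and 78, the MYL9 level on 25 kPa was 2.40-fold that on 0.5 kPa (95% exact binomial interval 1.58 to 3.73, counting error only), with an edgeR adjusted p of 0.021. The abundant forms had smaller differences. MYL12B was at 580.4 ± 17.2 CPM on 0.5 kPa and 709 ± 22.2 on 25 kPa (log2FC -0.29 ± 0.07, edgeR adjusted p = 0.025). MYL12A was at 383 ± 4.99 CPM on 0.5 kPa and 465 ± 25.5 on 25 kPa (log2FC -0.28 ± 0.07, edgeR adjusted p = 0.036). MYL12A and MYL12B are near-identical neighbors on chromosome 18 and may share reads. MYH9, the heavy chain of myosin IIA, had -0.32 ± 0.09 (edgeR adjusted p = 0.055), and the essential light chain MYL6 had -0.19. MYH10, the heavy chain of myosin IIB, had 0.01 ± 0.14. Without single libraries, MYL9 was lost 4 times (library 2 or 3 of 0.5 kPa, library 2 or 4 of 25 kPa, adjusted p up to 0.086) and MYL12B 6 times (any one library of 0.5 or 25 kPa, adjusted p up to 0.11). MYL12A was lost in all but the fit without library 3 of 4 kPa (adjusted p up to 0.14).

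Of 10 focal adhesion genes, ZYX and FERMT2 were lower on 0.5 kPa and 8 did not pass the test. ZYX (zyxin, which gathers at adhesions under tension) was at 107 ± 4.24 CPM on 0.5 kPa and 134 ± 10.9 on 25 kPa (log2FC -0.33 ± 0.08, edgeR adjusted p = 0.026). FERMT2 (kindlin-2, an integrin activator) was at 131 ± 5.68 CPM and 158 ± 6.61 CPM (log2FC -0.27 ± 0.07, edgeR adjusted p = 0.042). PXN (paxillin, an adhesion scaffold) was at 150.1, 149 and 146 CPM on 0.5 kPa, 178, 177 and 182 on 4 kPa and 176, 169.8 and 165 on 25 kPa. The softest gel lay below and apart from both others, yet the step to 25 kPa was small and missed the threshold (log2FC -0.20 ± 0.06, edgeR adjusted p = 0.072). VCL (vinculin, which strengthens the link to actin) was at 576, 611 and 575 CPM on 0.5 kPa, 722, 745 and 527 on 4 kPa and 612, 707 and 659.7 on 25 kPa. The spread of VCL on 4 kPa covered all other libraries, with library 3 at its low end. The VCL log2 fold change for 0.5 against 25 kPa was -0.17 ± 0.11 (edgeR adjusted p = 0.40). TLN1 (talin 1) had -0.17, VASP (a promoter of filament growth) -0.14, FERMT1 (kindlin-1) -0.13, the kinase PTK2 (FAK) -0.06, and ILK and PARVA, which form a complex at adhesions, -0.31 and -0.02. None of these 6 was called. ILK, at 8.70 to 14.9 CPM, had a standard error of 0.15. ZYX and FERMT2 kept their call in only 2 of 9 fits each with a library left out. ZYX was not called without any one library of 0.5 or 25 kPa or library 2 of 4 kPa (adjusted p up to 0.10). FERMT2 was not called without library 1 or 2 of 0.5 kPa, library 1 or 2 of 4 kPa or any one 25 kPa library (adjusted p up to 0.18).

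Among the LIM domain partners of actin, PDLIM7 (Enigma, which joins kinases to the cytoskeleton) was at 159, 151 and 137 CPM on 0.5 kPa, 186, 199.9 and 203 on 4 kPa and 216, 185 and 192 on 25 kPa. The softest gel again lay below the others, and PDLIM7 had a log2FC of -0.41 ± 0.08 (edgeR adjusted p = 0.010) against 25 kPa. FHL1, FHL2 and PDLIM5 had 0.06, -0.10 and 0.06 and were not called.

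Among the genes listed with SRF, RHOB and CDC42EP3 were lower on 0.5 kPa, and SRF was not called. RHOB (ENSG00000143878, chromosome 2 from 20447074 to 20449445), a GTPase of endosomes and the cytoskeleton and an early response gene, was at 111, 101 and 86.4 CPM on 0.5 kPa, 199.6, 218 and 205 on 4 kPa and 169, 156 and 171 on 25 kPa. The 3 gels did not overlap, and 4 kPa was the highest. RHOB had a log2 fold change of -0.73 ± 0.09 against 25 kPa (edgeR adjusted p = 3.3e-04). CDC42EP3 (an effector of CDC42 that binds septins) was at 104, 99.2 and 117 CPM on 0.5 kPa, 131, 123 and 142 on 4 kPa and 133, 139 and 141 on 25 kPa. It had a log2FC of -0.37 ± 0.08 (edgeR adjusted p = 0.016) and lost its call without library 1 or 2 of 0.5 kPa or library 3 or 4 of 25 kPa (adjusted p up to 0.088). SRF (ENSG00000112658, chromosome 6 from 43171299 to 43181507) was at 60.7, 55.4 and 54.2 CPM on 0.5 kPa, 64.3, 71.8 and 67.9 on 4 kPa and 68.2, 63.4 and 59.4 on 25 kPa. The end gels overlapped for SRF (log2FC -0.17 ± 0.08, edgeR adjusted p = 0.23). RHOA, the main driver of stress fibers, and its relative RHOC had -0.21 and -0.26, and the formin DIAPH1 had -0.11. The kinases ROCK1 and ROCK2 had 0.02 and 0.18. None of these 5 was called.

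**Figure D4:**
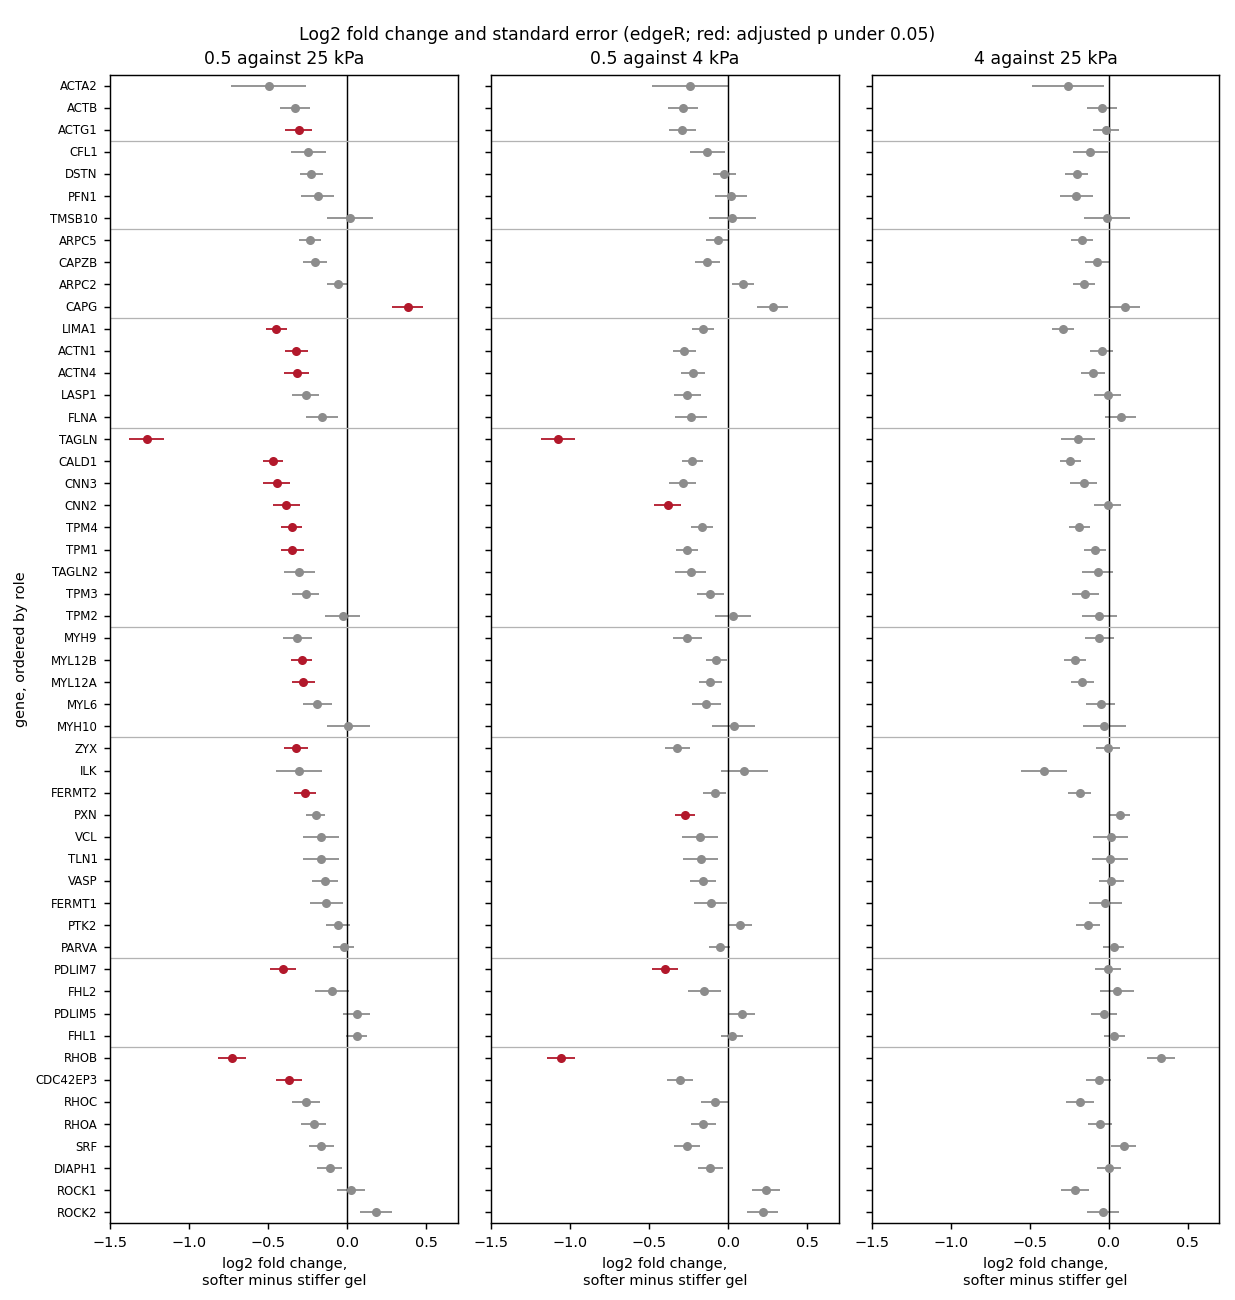
Log2 fold change (points) and its standard error (lines) of 52 of the 54 tested genes in the 3 comparisons, ordered by role as in the map of levels, with called genes in red. CNN1 and MYL9, with few counts, are left out. Most points lie left of 0 for 0.5 against 25 kPa and 0.5 against 4 kPa, TAGLN and RHOB stand farthest out, and no point is red for 4 against 25 kPa.

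Between 0.5 and 4 kPa, 7 of the 54 genes were lower on the softer gel and 47 were not called, while 1.13% of all tested genes were lower and 0.924% higher, 2.05% in all. This comparison shares the 0.5 kPa libraries with that against 25 kPa. RHOB had the smallest adjusted p. RHOB was 2.08-fold higher on 4 than on 0.5 kPa (log2FC -1.06 ± 0.09, edgeR adjusted p = 2.2e-05), and TAGLN 2.11-fold (log2FC -1.08 ± 0.11, edgeR adjusted p = 1.1e-04). PDLIM7 had a log2 fold change of -0.40 (adjusted p = 0.021), CNN2 -0.38 (adjusted p = 0.036) and PXN -0.27 (adjusted p = 0.041), all from edgeR. MYL9 and CNN1 passed as well (edgeR adjusted p = 0.024 and 0.022), with ratios of summed counts of 2.59 (95% exact binomial interval 1.71 to 4.00) and 4.78 (2.20 to 11.9). PXN was thus called on 4 kPa and not on 25 kPa, but its 4 and 25 kPa levels were not told apart by the test (log2FC 0.07 ± 0.06, edgeR adjusted p = 0.66). In 25 genes all libraries of 0.5 kPa lay below those of 4 kPa (9.06% of all tested genes), and in 1, ROCK1, all lay above (9.38%). The median log2 fold change of the 54 was -0.16, and 26 of them (48.1%) had an unadjusted p under 0.05, against 13.7% of all genes.
TAGLN and RHOB alone kept this call in all 9 fits with a library left out. The count of lower genes was 2 without library 2 of 0.5 kPa, 3 without library 3 of 0.5 kPa or library 2 of 4 kPa, 4 without library 1 of 0.5 kPa or library 1 of 4 kPa, and 11 without library 3 of 4 kPa. Over all tested genes the 184 lower calls became 76, 162, 97, 111, 130 and 326 in the same order. PDLIM7 and CNN1 were not called without library 2 or 3 of 0.5 kPa or library 2 of 4 kPa (adjusted p up to 0.095), and MYL9 without any one library of 0.5 kPa or library 1 or 3 of 4 kPa (adjusted p up to 0.12). CNN2 and PXN were not called without any one library of 0.5 kPa, library 1 or 2 of 4 kPa or library 4 of 25 kPa, and PXN also without library 3 of 25 kPa (adjusted p up to 0.16 and 0.17).

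Between 4 and 25 kPa, edgeR called 0 of the 54 genes, while 0.465% of all tested genes were lower and 0.435% higher on 4 kPa, 0.900% in all. DESeq2 gave 53 of them an adjusted p (not CNN1) and called LIMA1 and CALD1 lower and RHOB higher on 4 kPa, while over all genes it called 1.69% lower and 1.15% higher (2.84% in all). At an unadjusted p under 0.05 stood 13 of the 54 (24.1%), against 14.8% of all genes. The median log2 fold change was -0.06. LIMA1 had -0.29 ± 0.07 (edgeR adjusted p = 0.067), CNN1 -1.23 ± 0.29 (edgeR adjusted p = 0.069), CALD1 -0.24 ± 0.07 (edgeR adjusted p = 0.095) and RHOB 0.33 ± 0.09 (edgeR adjusted p = 0.093), each without overlap between the libraries of these gels. In 13 genes all libraries of 4 kPa lay below those of 25 kPa (11.1% of all tested genes), and in 2, PXN and RHOB, all lay above (8.97%). With upper-quartile scaling the calls over all genes moved from 76 lower and 71 higher to 28 and 69, and none of the 54 was called.

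The 4 kPa level of most called genes stood nearer to 25 than to 0.5 kPa. Of the 20 genes called between the end gels, 14 (70.0%) did so, with a median of 74.2% of the way from 0.5 to 25 kPa on the log2 scale. Over all 1092 genes called between these gels, 58.7% did so, with a median of 56.8%. CNN2, PDLIM7 and ZYX had covered 98.5, 98.2 and 98.6% of the way at 4 kPa, and ACTG1 93.9%. TAGLN had covered 84.8% and ACTN1 86.1%. MYL12B stood at 25.6%, FERMT2 at 31.3% and LIMA1 at 35.6%, and CALD1 and TPM4 near the middle, at 48.1 and 46.9%. MYL9 (109%) and RHOB (145%) went past the 25 kPa level. These positions share libraries with the calls and carry no test.

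Other genes of the pathway were taken from a list of 86, also written with earlier results of these data known. Of the 86, 84 were tested. Of these, 13 were lower on 0.5 than on 25 kPa (3.62% of all tested genes were), 71 were not called, and their median log2 fold change was -0.12. EZR (ezrin, which ties actin to the membrane) was at mean levels of 1217, 1553 and 1799 CPM on 0.5, 4 and 25 kPa (log2FC -0.56 ± 0.09, edgeR adjusted p = 0.0026). PALLD (palladin, a scaffold of stress fibers) had -0.54 (edgeR adjusted p = 0.0031), CFL2 (the muscle form of cofilin) -0.42 (adjusted p = 0.0060) and CORO1C (a coronin of filament turnover) -0.41 (adjusted p = 0.010). Of the 13 lower genes, 5 were crosslinkers and membrane linkers, of 14 tested, and 1 was a focal adhesion gene, of 19. Between 0.5 and 4 kPa, where 1.13% of all tested genes were lower, SYNPO (synaptopodin, which binds alpha-actinin) was lower on 0.5 kPa (log2FC -0.50 ± 0.07, edgeR adjusted p = 0.0016), as was LIMK2 (a kinase that inactivates cofilin, log2 fold change -0.34, edgeR adjusted p = 0.043). Between 4 and 25 kPa edgeR called 0 of the 84, with 15 (17.9%) at an unadjusted p under 0.05 against 14.8% of all tested genes. DESeq2 called 4 of them, all lower on 4 kPa, against its 1.69% over all genes. The 6 tested cofactors and regulators of SRF had log2 fold changes of -0.24 to 0.29 for 0.5 against 25 kPa and were not called. The 13 calls fell to 3 without library 4 of 25 kPa, 5 without library 2 of 0.5 kPa or library 3 of 25 kPa, 7 without library 2 of 25 kPa and 8 without library 1 or 3 of 0.5 kPa. Those for 0.5 against 4 kPa rose to 11 without library 3 of 4 kPa, and fell to 1 without library 1 or 2 of 0.5 kPa, library 1 or 2 of 4 kPa or any one 25 kPa library. Over all tested genes the lower calls moved the same way, from 592 to between 194 and 356 where the 13 fell. For 0.5 against 4 kPa they went from 184 to 326 without library 3 of 4 kPa, and to between 76 and 168 where the calls fell.

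Within gels, libraries deviated from the gel mean in a way that went with gene length, taken as the length behind the FPKM values. These are correlations across genes, which share the library and are not independent replicates. Over the 54 genes, Spearman's rank correlation between a library's deviation and gene length was -0.70, -0.12 and 0.48 for replicates 1, 2 and 3 of 0.5 kPa, 0.54, 0.21 and -0.46 for those of 4 kPa and -0.61, 0.67 and 0.20 for replicates 2, 3 and 4 of 25 kPa. Over all tested genes it ran from -0.32 to 0.27. Each gel thus held libraries of both signs, and their part in the results was not tested beyond the alternative given next. Between gels, the rank correlation of the log2 fold change with length over the 54 genes was 0.24 for 0.5 against 25 kPa, 0.16 for 0.5 against 4 kPa and 0.01 for 4 against 25 kPa. Offsets adjusted for length in each library were an alternative chosen after seeing these deviations. With them, 21 genes were lower and 1 higher for 0.5 against 25 kPa, with a median log2 fold change of -0.24. They gave 12 calls for 0.5 against 4 kPa and 2 for 4 against 25 kPa. Over all tested genes the calls rose too, from 592 lower and 500 higher to 782 and 618 for 0.5 against 25 kPa. For 0.5 against 4 kPa they went from 184 and 151 to 287 and 218, and for 4 against 25 kPa from 76 and 71 to 105 and 111.

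**Figure D5:**
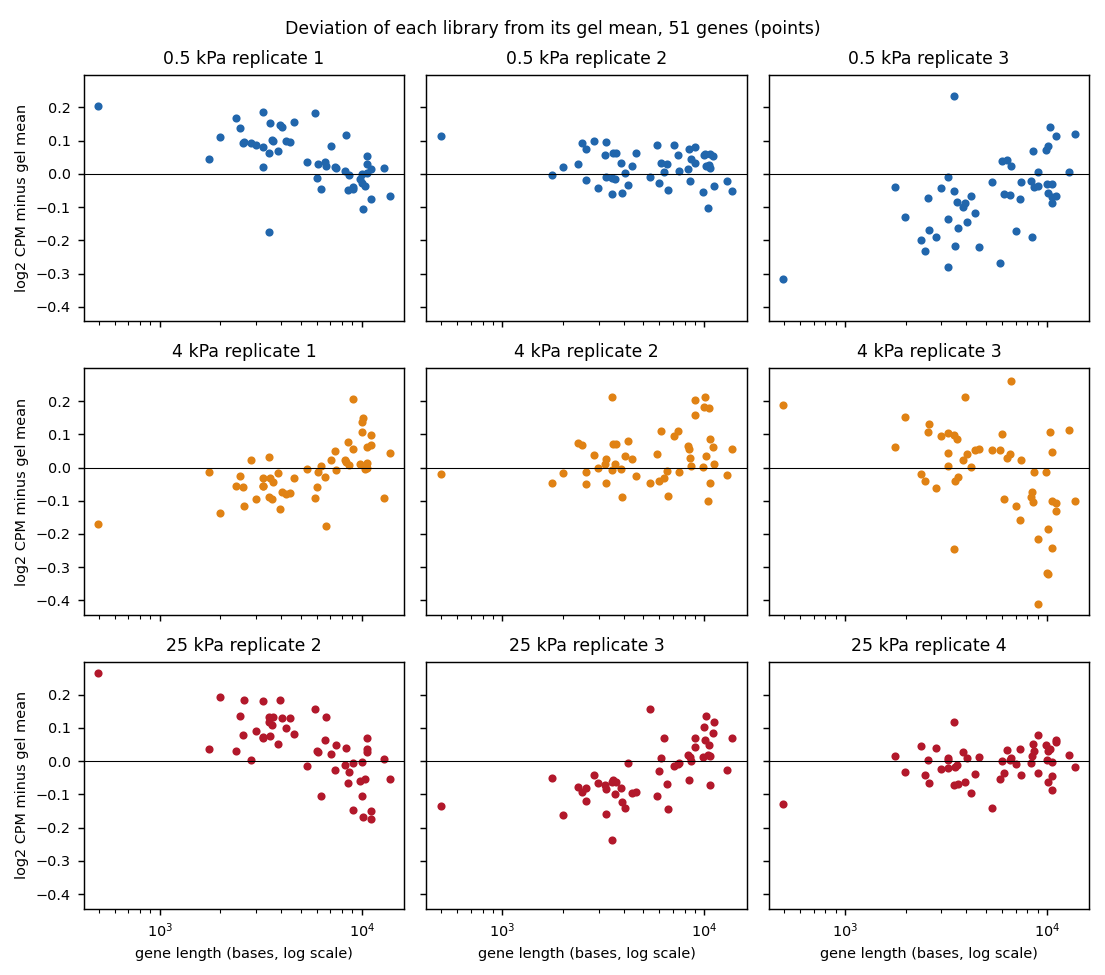
Deviation of each library from the mean of its gel (log2 CPM, vertical) against gene length (bases, log scale, horizontal) for 51 of the 54 tested genes, with CNN1, MYL9 and ACTA2 left out for low counts. Short genes lie mostly above the line and long genes near or below it in library 1 of 0.5 kPa (rank correlation -0.70 over all 54) and library 2 of 25 kPa (-0.61), and the slope is turned in library 3 of 25 kPa (0.67).

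Counts of some of these genes may hold reads of others. Exons of 28 of the 55 genes overlap those of another gene in GENCODE release 29, mostly on the opposite strand, such as TAGLN with PCSK7, ZYX with EPHA1 and CFL1 with MUS81. Whether the counting used strand is not known from the sources used here.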

How the data were processed

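Poly(A) RNA of SKOV-3 cells from 3 gels (0.5, 4 and 25 kPa) was sequenced, with 9 libraries in all. The labels name a NEBNext Ultra kit and the study's methods a TruSeq kit. Per the submitters' processing notes, bcl2fastq, FastQC 0.11.5 and HISAT2 2.1.0 were used with hg38. Which program counted the reads, and with which strand setting, was not given in the sources used here. Deposited by the authors were raw counts per gene, which were tested, and FPKM values per gene, used for levels between genes and in alternatives. Transcript tables were not used. Another 3 sample columns of these tables fitted no sample label and were ignored. Coordinates are those deposited.

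Counts were fitted with edgeR 4.0.16 (filterByExpr, TMM, robust quasi-likelihood) in R 4.3.3, gel as the only term, and tested on simulated data first. Figures and motif searches used Python 3.11.15 with matplotlib 3.10.9 and pandas 2.3.3. The members, roles and lists were chosen with earlier results of these data known. Values in every library are given for up to 14 genes called for 0.5 against 25 kPa and up to 5 for each other comparison with the smallest adjusted p, for called genes against the common direction, and for ACTB, SRF, PXN and VCL. ACTG1 and a few more are given in the same way by choice after their values were seen. Of the other pathway genes, up to 4 called per comparison are named.

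Alternatives were upper-quartile or RLE scaling, leaving out the count filter, a minimum of 10 counts in all libraries, a block for the replicate number, DESeq2 1.42.0, limma 3.58.1 on log2 FPKM with pseudocounts of 1 and 0.1 or a mean FPKM of at least 1, a fit of just the 6 libraries of both gels, each library left out in turn, both replicate 3 libraries left out, and 2-fold with unadjusted p. Offsets adjusted for gene length were added after the data were seen.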

Additional observations from a re-analysis of the deposited data

How the results depend on the processing

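For 0.5 against 25 kPa, 19 members were lower and 1 higher, beside 592 lower and 500 higher over all tested genes. With the replicate number as a block, 3 were lower and 0 higher, and for 0.5 against 4 kPa 2 were called in place of 7. Over all tested genes the block left 114 lower and 101 higher for 0.5 against 25 kPa, and 81 and 65 for 0.5 against 4 kPa. The 7 pairs of same-numbered libraries had correlations of -0.23 to 0.14, with 2 over 0.1. Pairs with unlike numbers ran from -0.23 to 0.23, so these values cannot tell whether a number marks a shared culture or day. The numbers were not taken as pairs because no source used here says that they mark one. On FPKM, limma called 6 (pseudocount 1), 7 (pseudocount 0.1) and 12 (mean FPKM at least 1) lower, and 0 higher with either pseudocount alone. Over all genes these fits called 114, 163 and 324 lower and 153, 225 and 384 higher. At 2-fold with unadjusted p, 3 were lower and 0 higher, against 109 and 263 over all genes. With a library left out, 7 to 27 were lower and 0 to 1 higher, against 194 to 1083 and 173 to 883 over all genes.
For 0.5 against 4 kPa, the 7 calls became 12 with no count filter, 14 in DESeq2, 2 and 3 in limma with pseudocounts 1 and 0.1, 3 with only the 6 libraries compared, 12 with length-adjusted offsets, 4 at 2-fold, and 16 with both replicate 3 libraries left out, against 2 to 11 with one library left out. Over all tested genes the 184 lower and 151 higher calls became 326 and 358 with no filter and 286 and 230 in DESeq2. They became 78 and 56, and 92 and 69, in limma, 105 and 86 with 6 libraries, and 287 and 218 with length-adjusted offsets. At 2-fold they were 89 and 85, without both replicate 3 libraries 434 and 461, and with one left out 76 to 326 and 49 to 258. For 4 against 25 kPa, the 0 calls became 3 with no count filter, 3 in DESeq2, 2 with length-adjusted offsets, 1 at 2-fold and 8 without both replicate 3 libraries, and were 0 to 1 with one library left out (1 without 0.5 kPa replicate 3 or 4 kPa replicate 3). Over all tested genes the 76 lower and 71 higher calls became 276 and 203 with no filter, 239 and 162 in DESeq2, and 105 and 111 with length-adjusted offsets. At 2-fold they were 26 and 142, without both replicate 3 libraries 572 and 547, and with one left out 2 to 154 and 22 to 148.
Of the other pathway genes, 13 were called for 0.5 against 25 kPa, 1 with the block, 1, 2 and 7 in limma (pseudocount 1, 0.1, minimum FPKM), 0 at 2-fold, 20 without both replicate 3 libraries and 3 to 18 with one library left out. Without both replicate 3 libraries, the calls over all tested genes rose as well, from 592 lower and 500 higher to 992 and 944. For 0.5 against 4 kPa, 2 were called, 9 with no filter, 7 in DESeq2, 1 in each limma fit, 1 with 6 libraries, 7 with length-adjusted offsets, 0 at 2-fold, 12 without both replicate 3 libraries and 1 to 11 with one left out. For 4 against 25 kPa, 0 became 3 with no filter, 4 in DESeq2, 11 without both replicate 3 libraries and 0 to 1 with one left out. The counts over all tested genes for most of these fits are given above. The causes were not tested. For single genes 184 calls were lost and 86 gained over the alternatives, and no direction of a called gene was reversed. Counts of CNN1, MYL9 and ACTA2 limit what can be said of the smooth muscle forms.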
